A study of Mus musculus with 4 samples.

Results

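Voltage-gated calcium channels open when a neuron is depolarized and let calcium into the cell, where it triggers transmitter release at presynaptic terminals, firing in bursts and calcium-dependent transcription. Each channel is built around a large pore-forming alpha1 subunit of 4 homologous domains, and most also carry an extracellular alpha2delta and a cytoplasmic beta subunit that set how many channels reach the membrane and how they gate. The pore genes fall into high-voltage-activated channels, which need a strong depolarization, and T-type channels, which open near the resting potential. Here 10 subunit genes were taken by name from the 23420 gene symbols counted in mouse prefrontal cortex (PFC): the 5 high-voltage pore genes Cacna1a, Cacna1b, Cacna1c, Cacna1d and Cacna1e, the 3 T-type pore genes Cacna1g, Cacna1h and Cacna1i, and the auxiliary genes Cacna2d1 and Cacnb4. All 10 were among the 16232 genes with enough counts to test.

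RNA was measured in 4 bulk PFC samples of C57BL6/J mice, 2 from mice that received an AAV9 carrying GFP (control) and 2 from mice that received an AAV9 with a short hairpin RNA against Ash1L, a histone methyltransferase (Ash1L shRNA). The labels call the control GFP-AAV9, whereas the methods describe a scrambled shRNA virus. Mouse age was 6 to 8 weeks in the series description and 5 weeks at injection in the methods. The hairpin was driven by the U6 promoter, which is not restricted to neurons, and punches were taken where GFP fluorescence was seen, so infected and uninfected cells of all types were measured together. Per the methods, tissue of 3 mice was pooled into each sample, while the series description lists 3 shRNA and 2 control mice, so the p-values measure only the spread between these 4 samples. In such bulk tissue, fewer cells of a type and less RNA per cell cannot be told apart.

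Total counts ran from 14251190 to 35764874 per sample, and each of the 10 genes had at least 885 counts in every sample. Values below are CPM, read counts scaled by library size and the TMM factor, and each pair of values is in the order replicate 1, replicate 2. A gene was called DOWN or UP at an unadjusted P under 0.05 with at least a 1.2-fold change in edgeR's quasi-likelihood test. Ash1l itself was at 245 and 290 CPM in the control and 216 and 138 CPM in the Ash1L shRNA samples (log2 fold change -0.60, adjusted p = 0.275 by edgeR). Relative to the control mean it was -0.31 (log2) in Ash1L shRNA sample 1 but -0.96 in the second. Its DOWN call was lost when control 1, control 2 or Ash1L shRNA sample 2 was left out (log2 fold changes -0.71, -0.48 and -0.31). It was also lost with an offset for exonic length, alone (-0.55) or with same-numbered samples as a replicate block (-0.59). Separately from these counts, the paper reports lower Ash1L mRNA by qPCR and lower Ash1L protein by Western blot in PFC given the Ash1L shRNA virus. Marker genes of 13 cell types and layers were read beside the channel genes; 8.28% of all tested genes were DOWN, 8.61% were UP, and no marker had an adjusted p under 0.05. Summed over 10 astrocyte markers, of which 6 were DOWN, the level was 4873 and 5194 CPM in the control and 4084 and 3166 CPM in the Ash1L shRNA samples. For 8 excitatory neuron markers, 4 of them DOWN, it was 2821 and 3301 against 2592 and 2087 CPM, and for 8 microglia markers, none called and all overlapping between the groups, 775 and 808 against 990 and 406 CPM. DOWN calls were also made for 1 of 10 pan-neuronal, 1 of 5 superficial layer, 5 of 7 deep layer, 4 of 10 interneuron, 1 of 6 thalamic and 1 of 8 oligodendrocyte markers, UP calls for 2 of 6 oligodendrocyte precursor, 1 of 6 endothelial and 1 of 6 mural markers, and 1 of each for 7 striatal markers. No marker on any list was at 0 in all samples, and the part of cell composition in the channel results was not tested.

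One sequence difference between the pore classes lies in the selectivity filter, where each of the 4 domains contributes 1 acidic residue that binds calcium. In the coding sequences of the GENCODE vM21 annotation (GRCm38), sites 1 and 2 were glutamate in all 8 pore genes. Sites 3 and 4 were glutamate in the 5 high-voltage genes and aspartate in the 3 T-type genes. Sites were found with a fixed residue pattern, and its form matching site 3 of the T-type genes allowed only aspartate. Site 4 lay within 1 exon in every gene and is shown with its codon in capitals, 5′ to 3′ on the coding strand, because it marks the class by which the genes are compared below.
Cacna1a: agcgccacaggaGAAgcgtggcacaac
Cacna1b: agtgccactgggGAGgcctggcatgag
Cacna1c: tgtgccaccggaGAGgcctggcaggac
Cacna1d: tgtgcaacagggGAAgcctggcaggag
Cacna1e: agtgccacggggGAGgcttggcaggag
Cacna1g: gtctccactggtGACaactggaatggt
Cacna1h: gtgtccactgggGACaactggaatggg
Cacna1i: gtctccacaggcGATaactggaatggg

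These windows lie in GRCm38 at chr8:84611599-84611625 on the plus strand for Cacna1a, chr2:24635213-24635239 on the minus strand for Cacna1b, chr6:118614050-118614076 on the minus strand for Cacna1c, chr14:30075944-30075970 on the minus strand for Cacna1d and chr1:154425975-154426001 on the minus strand for Cacna1e. The T-type windows lie at chr11:94416415-94416441 on the minus strand for Cacna1g, chr17:25377771-25377797 on the minus strand for Cacna1h and chr15:80388485-80388511 on the plus strand for Cacna1i. The codon is GAA or GAG in the high-voltage genes and GAC or GAT in the T-type genes. The tryptophan codon tgg follows after 1 further codon in all 8, because the residue pattern that found the sites required a tryptophan there.

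To compare levels between genes, CPM was divided by exonic length. This is the length of all annotated exons of a gene, with overlaps counted once, such as 21.2 kb for Cacna1c and 25.2 kb for Cacna1e. In the control samples, Cacnb4 was the most abundant of the 10 at 44.9 ± 1.42 CPM per kb (SD, n = 2), followed by Cacna2d1 at 30.1 ± 6.45. Among the pore genes, Cacna1e was highest at 20.6 ± 0.206 CPM per kb, then Cacna1b at 15.9 ± 1.66, Cacna1a at 14.3 ± 0.173 and the T-type gene Cacna1i at 12.6 ± 1.11. Cacna1g followed at 8.85 ± 0.157, and Cacna1d at 6.14 ± 0.307, Cacna1h at 5.99 ± 0.612 and Cacna1c at 4.99 ± 0.157 CPM per kb were lowest. Only the neighbours Cacna1d and Cacna1h overlapped between their 2 control samples in this order. Without the division, Cacna1c, at a mean of 106 CPM in the control, was above Cacna1g (89.7), Cacna1d (77.5) and Cacna1h (58.5). The place of Cacna1c in the order therefore depends on the exonic length used. The R-type gene Cacna1e alone made up 34.2% and 32.4% of the summed high-voltage level in the control and 31.6% and 30.3% in the Ash1L shRNA samples. Of the 8 further subunit genes, Cacnb3, at a control mean of 41.8 CPM per kb, ranked between Cacnb4 and Cacna2d1. The skeletal muscle pore gene Cacna1s and the retinal pore gene Cacna1f were at control means of 0.24 and 0.15 CPM per kb.

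**Figure D1:**
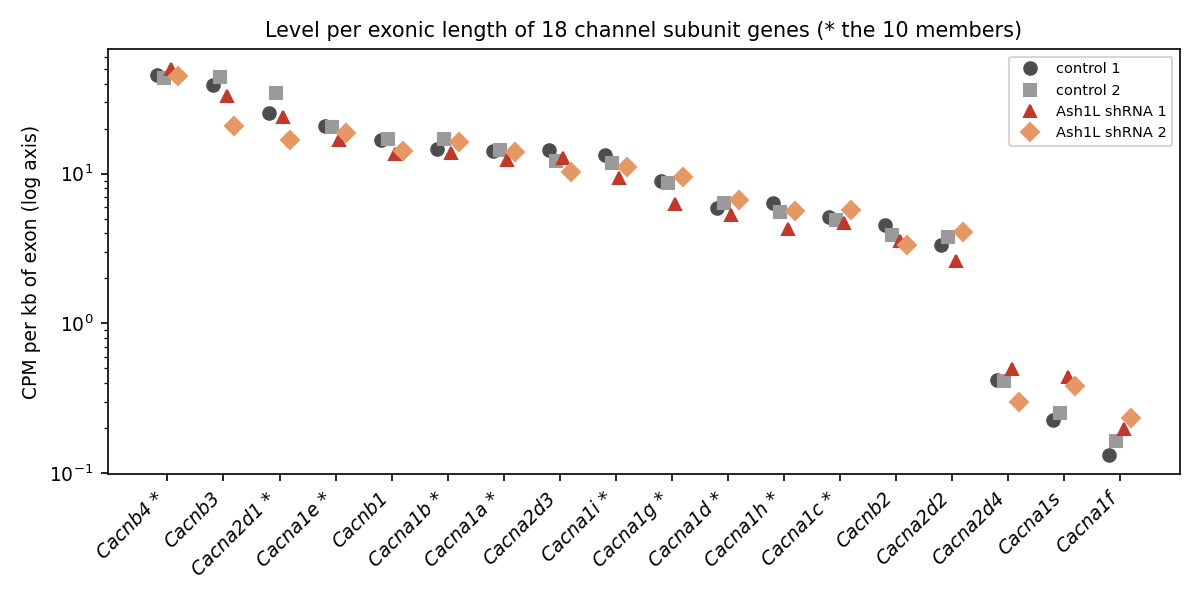
Level of 18 channel subunit genes in CPM per kb of exon (log axis) in each of the 4 samples, ordered by their control mean, with the 10 genes described here starred. Cacnb4 is highest, Cacna1e leads the pore genes, and Cacna2d4, Cacna1s and Cacna1f lie below 1 CPM per kb in every sample.

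The comparison of Ash1L shRNA with control describes how the channel genes differed between these groups. The paper reports seizures in mice given the Ash1L shRNA virus, and their part in these differences was not tested. Of the 10 genes, 1 was DOWN (Cacna2d1) and 0 were UP, against 8.28% DOWN and 8.61% UP among all tested genes. With adjustment over all genes (16232 by edgeR), 0 of the 10 had an adjusted p under 0.05 by edgeR, DESeq2 or edgeR's likelihood ratio test. Of all genes, 0.00616% did by edgeR, 2.08% by DESeq2 and 2.95% by the likelihood ratio test. At an unadjusted p under 0.05, 1 of the 10 passed by each of these tools, and 2746 of the 16232 tested genes passed by edgeR. In 4 of the 10 (Cacna1a, Cacna1e, Cacna1i and Cacna2d1) the Ash1L shRNA pair lay wholly below the control pair, as in 26.8% of all tested genes, and in 0 of the 10 it lay wholly above, as in 26.5%. The log2 fold change was negative for 8 of the 10, with a median of -0.14 beside -0.0027 over all tested genes. It was negative for 7 with library-size scaling, where Cacna1d was at 0.0056. Without control 2 or without Ash1L shRNA sample 1 it was negative for 6, and without Ash1L shRNA sample 2 for 9.

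**Figure D2:**
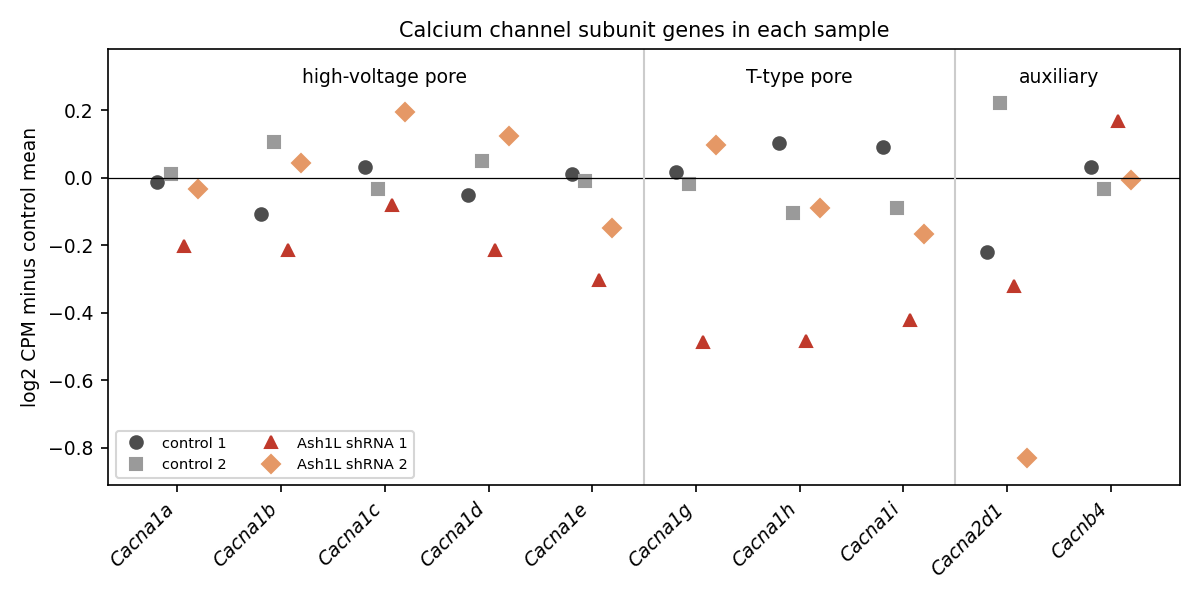
Log2 CPM of each of the 10 genes in the 4 samples, minus the mean of the 2 control samples; each point is 1 sample. The points of Ash1L shRNA sample 1 lie below zero for all 8 pore genes, those of sample 2 on both sides of zero, and Cacna2d1 is the only gene with its lowest point, at -0.83, in sample 2.

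Cacna1a (chr8:84388440-84640246) and Cacna1b (chr2:24603887-24763152) encode the pores of the P/Q-type and N-type channels, which supply the calcium for transmitter release. Cacna1a was at 162 and 165 CPM in the control and 142 and 160 CPM in the Ash1L shRNA samples. Both Ash1L shRNA values were below both control values, sample 2 by little (log2 fold change -0.12 ± 0.12 SE, adjusted p = 0.628 by edgeR). The log2 fold change was -0.039 without Ash1L shRNA sample 1, -0.20 without sample 2 and -0.032 with an offset for GC content. Cacna1b was at 146 and 170 CPM in the control and 136 and 163 CPM in the Ash1L shRNA samples, and the groups overlapped (log2 fold change -0.08 ± 0.14 SE, adjusted p = 0.784 by edgeR).

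Cacna1c (chr6:118587240-119196418) and Cacna1d (chr14:30039939-30491455) encode L-type channels, which couple calcium entry at the soma and dendrites to gene expression. For Cacna1c, control values were 108 and 103 CPM, and Ash1L shRNA values were 99.97 and 121 CPM, so that 1 shRNA sample lay below and 1 above the control (log2 fold change 0.06 ± 0.13 SE, adjusted p = 0.829 by edgeR). The pattern was the same for Cacna1d, at 74.7 and 80.2 CPM in the control and 66.8 and 84.3 CPM in the Ash1L shRNA samples (log2 fold change -0.04 ± 0.14 SE, adjusted p = 0.913 by edgeR). Exons of Cacna1d overlap those of the opposite-strand gene Chdh, by up to 589 bases for a single Chdh exon. Whether counting used strand is not given in the sources used here, but Chdh had at most 261 counts in any sample, against at least 1055 for Cacna1d. Exons of Cacna1a, Cacna1h and Cacnb4 also overlap those of an opposite-strand gene, by up to 227, 158 and 1170 bases for a single exon of that gene. The gene at Cacna1h, Tpsg1, had at most 8 counts in a sample. Those at Cacna1a and Cacnb4 are not among the counted symbols, so reads from them could not be assessed.

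Cacna1e (chr1:154390731-154884501), the R-type pore gene, had the largest difference of the 5 high-voltage genes. It was at 524 and 517 CPM in the control and 422 and 469 CPM in the Ash1L shRNA samples. The groups did not overlap and the control pair lay within 8 CPM of each other, but the difference did not pass the test (log2 fold change -0.22 ± 0.12 SE, adjusted p = 0.359 by edgeR). Of the 5 high-voltage genes 0 were called, where 8.28% of all tested genes were DOWN and 8.61% UP. Their median log2 fold change was -0.08, with a range from -0.22 to 0.06. This median changed sign when control 2 was left out (0.01) or Ash1L shRNA sample 1 was left out (0.03), and was -0.21 without Ash1L shRNA sample 2.

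The T-type genes shape burst firing and rebound from inhibition, Cacna1g and Cacna1h with fast and Cacna1i with slow kinetics. Cacna1i (chr15:80287238-80398279) was at 132 and 116 CPM in the control and 92.4 and 110 CPM in the Ash1L shRNA samples, without overlap (log2 fold change -0.29 ± 0.14 SE, adjusted p = 0.332 by edgeR). Cacna1h (chr17:25374285-25433783) was at 62.7 and 54.2 CPM in the control, and its Ash1L shRNA samples were at 41.7 and 54.8 CPM. Here sample 2 lay between the control values (log2 fold change -0.28 ± 0.17 SE, adjusted p = 0.419 by edgeR). Cacna1g (chr11:94408391-94474198) was at 90.8 and 88.6 CPM in the control against 64.0 and 96.0 CPM, the lowest and the highest value both in the Ash1L shRNA group (log2 fold change -0.17 ± 0.20 SE, adjusted p = 0.686 by edgeR). Of the 3 T-type genes 0 were called, where 8.28% of all tested genes were DOWN and 8.61% UP. Their median log2 fold change was -0.28. Without Ash1L shRNA sample 1 this median was -0.10, and without sample 2 it was -0.48. It was -0.16 without control 1.

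The classes were then compared by their summed level per length, which depends on the exonic lengths used. The 5 high-voltage genes summed to 60.7 and 63.2 CPM per kb in the control and 52.9 and 61.3 CPM per kb in the Ash1L shRNA samples. The T-type genes summed to 28.7 and 26.1 CPM per kb in the control and 20.0 and 26.3 CPM per kb in the Ash1L shRNA samples. In both classes sample 2 lay between the control values. The T-type share of the 8 pore genes was 32.1% and 29.2% in the control and 27.4% and 30.0% in the Ash1L shRNA samples, so the groups overlapped. The mean share differed by -1.97 percentage points between Ash1L shRNA and control. For each of these 3 values the two-sided exact permutation test gave p = 0.667, and 0.667 after Benjamini-Hochberg adjustment over the 3; with 2 samples against 2 the smallest p it allows is 0.333. A shift from T-type to high-voltage channels was therefore not detectable with these samples.

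**Figure D3:**
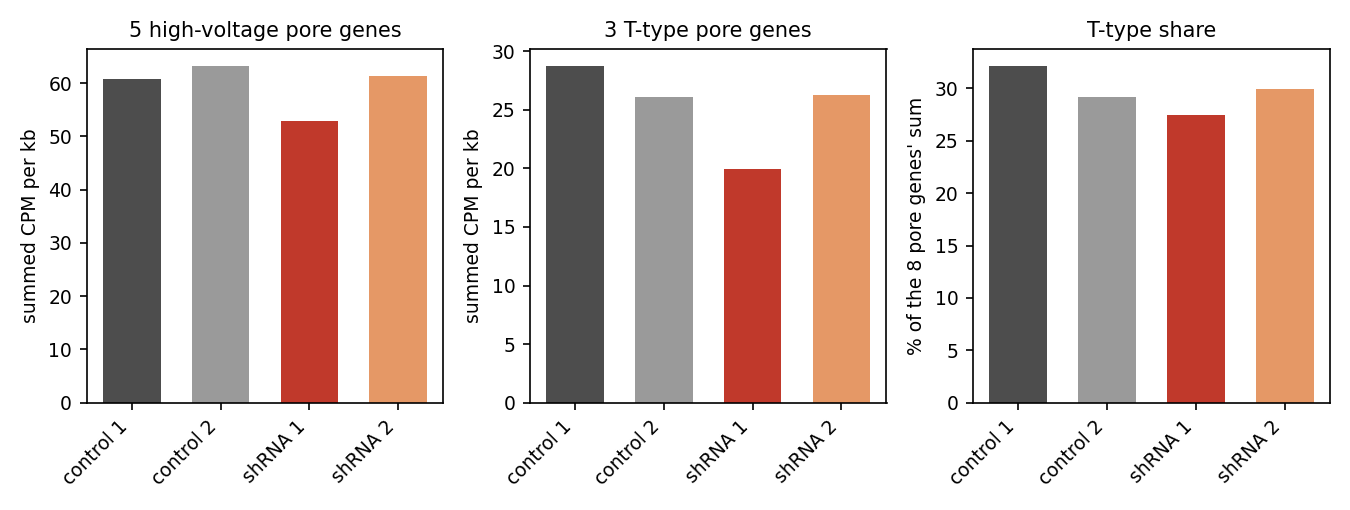
Summed CPM per kb of the 5 high-voltage (left) and the 3 T-type pore genes (middle), and the T-type percentage of both together (right), with 1 bar for each sample. Ash1L shRNA sample 1 is lowest in all 3 panels, at 52.9 and 20.0 CPM per kb and 27.4%, while sample 2 lies between the control samples in all 3.

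The Ash1L shRNA samples differed from each other in a direction shared by all pore genes. Sample 1 was below sample 2 for 8 of 8, by 0.15 to 0.58 on the log2 scale (median 0.27), whereas sample 1 was the lower in 47.7% of all tested genes and in 9.82% of the genes called DOWN. Relative to the control mean, the median over the high-voltage genes was -0.21 in sample 1 and 0.04 in sample 2, and that over the T-type genes was -0.48 and -0.09. Pore genes are long, at 9.76 to 25.2 kb of exon against a median of 4.304 kb, and sample 1 was also the lower in 55.4% of the genes in the top 10% of exonic length (median difference 0.04). With an offset for exonic length the differences of the 8 pore genes were 0.10 to 0.56. Without Ash1L shRNA sample 2, 4 genes were DOWN (Cacna1e, Cacna1g, Cacna1h and Cacna1i, log2 fold changes -0.30, -0.48, -0.48 and -0.42), where 5.05% of all tested genes were DOWN. Without sample 1 none of the pore genes was, where 16.5% of all tested genes were DOWN. Ash1l, the targeted gene, was the lower in sample 2, as were the summed astrocyte, excitatory neuron and microglia markers given above. Sample 1 was the lower for the summed striatal markers, at 138 against 214 CPM (138 and 137 CPM in the control), and for the thalamic markers, at 73.5 against 88.1 CPM (82.2 and 76.3 CPM in the control). What sets sample 1 apart for the pore genes was not tested.

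Cacna2d1 (chr5:15934691-16374511) encodes alpha2delta-1, which promotes channel trafficking and is the target of gabapentin. It was at 317 and 430 CPM in the control and 296 and 208 CPM in the Ash1L shRNA samples. The control samples differed by 0.44 and the Ash1L shRNA samples by 0.51 on the log2 scale, and the groups did not overlap, with control 1 closest to Ash1L shRNA sample 1. The log2 fold change was -0.57 ± 0.22 SE (1.48-fold lower, adjusted p = 0.281 by edgeR), and DESeq2 gave an adjusted p of 0.161. It kept its sign in all 16 further fits, between -0.33 and -0.85. The call was lost without control 2 (-0.34) and without Ash1L shRNA sample 2 (-0.33). Without Ash1L shRNA sample 1 it was -0.85 with an adjusted p of 0.027, in a fit where 15.2% of all tested genes had an adjusted p under 0.05. Without control 1 it was -0.76 and still DOWN. With an offset for exonic length the value was -0.53 and the call was lost. With same-numbered samples as a replicate block it was -0.57 and the call was also lost (adjusted p = 0.411 by edgeR).

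Cacnb4 (chr2:52428320-52676831) encodes a beta subunit that binds the pore's intracellular loop and is abundant in cortex and cerebellum. It was at 411 and 393 CPM in the control and 452 and 400 CPM in the Ash1L shRNA samples, with overlap (log2 fold change 0.08 ± 0.12 SE, adjusted p = 0.743 by edgeR). Unlike the pore genes, both auxiliary genes were lower in sample 2 than in sample 1.

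Of the 8 other genes for alpha1, alpha2delta and beta subunits, 2 were DOWN and 0 were UP, with a median log2 fold change of -0.15. The shares over all tested genes were 8.28% DOWN and 8.61% UP. Cacnb3, the main beta subunit gene by level after Cacnb4, was at 156 and 179 CPM in the control and 134 and 83.6 CPM in the Ash1L shRNA samples (log2 fold change -0.63 ± 0.23 SE, adjusted p = 0.269 by edgeR). Cacnb1 was at 75.9 and 76.9 CPM against 61.0 and 64.2 CPM, the closest agreement between replicates of the 3 beta genes that lay below the control in both samples (log2 fold change -0.29 ± 0.11 SE, adjusted p = 0.271 by edgeR). Cacnb2 was at 60.0 and 51.4 CPM against 47.0 and 44.4 CPM and did not pass (log2 fold change -0.28 ± 0.13 SE, adjusted p = 0.324 by edgeR). The alpha2delta genes Cacna2d2, Cacna2d3 and Cacna2d4 overlapped between groups, with log2 fold changes of -0.09, -0.21 and -0.06. Cacna1s, with at most 79 counts in a sample, was higher in both Ash1L shRNA samples (2.88 and 2.51 CPM against 1.49 and 1.65 CPM, log2 fold change 0.77, adjusted p = 0.317 by edgeR) and was not called. The calls of Cacnb1 and Cacnb3 were both lost without control 1, without control 2 and with an offset for GC content, with or without the replicate block. That of Cacnb1 was also lost without Ash1L shRNA sample 1, by DESeq2, by the likelihood ratio test, with library-size scaling and with the replicate block, alone or with the length offset, or in 10 of 16 further fits. Cacnb3 was at -1.01 without Ash1L shRNA sample 1 and -0.33 without sample 2. Cacna2d3 was at -0.39 and DOWN without Ash1L shRNA sample 1, -0.06 without sample 2 and -0.08 without control 1. Cacnb2 was at -0.16 without control 1.

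**Figure D4:**
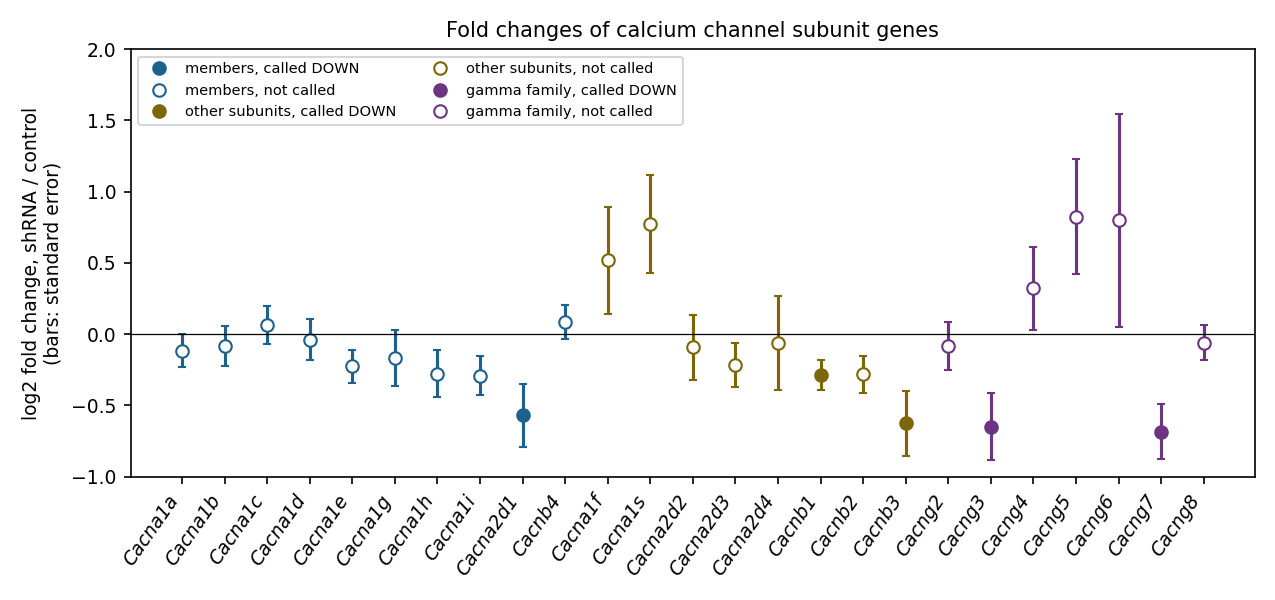
Log2 fold change, Ash1L shRNA over control, with its standard error, for the 10 genes, the 8 other subunit genes and the 7 tested genes of the gamma family, filled where called DOWN. Of these 25 genes, Cacna2d1, Cacnb1, Cacnb3, Cacng3 and Cacng7 are filled, and 0 were called UP. Among all tested genes 8.28% were DOWN and 8.61% UP.

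The gamma family includes subunits of the muscle calcium channel and the TARPs, which traffic AMPA receptors. Of its 8 genes 7 were tested, and Cacng3 and Cacng7 were DOWN, where 8.28% of all tested genes were. The family median was -0.06. Cacng3 was at 47.7 and 53.9 CPM in the control and 40.0 and 24.8 CPM in the Ash1L shRNA samples (log2 fold change -0.65, adjusted p = 0.266 by edgeR). Cacng7 was at 23.9 and 22.9 CPM against 16.9 and 12.1 CPM (log2 fold change -0.68, adjusted p = 0.259 by edgeR). The call of Cacng3 was lost without control 1 or without control 2, that of Cacng7 without control 1. Cacng3 was at -1.05 without Ash1L shRNA sample 1 and -0.35 without sample 2.

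Of 22 genes for proteins that bind or regulate calcium channels, 2 were DOWN and 3 were UP. Among all tested genes 8.28% were DOWN and 8.61% UP, and the median log2 fold change of the 22 was -0.13. Stx1a, a SNARE protein that binds the presynaptic pores, was at 307 and 318 CPM in the control and 263 and 178 CPM in the Ash1L shRNA samples (log2 fold change -0.50, adjusted p = 0.278 by edgeR). Rims2, an active zone protein that tethers channels near vesicles, was at 253 and 233 against 205 and 187 CPM (log2 fold change -0.31, adjusted p = 0.276 by edgeR). Each of these calls was lost without control 1, without control 2 and without Ash1L shRNA sample 2. That of Stx1a was also lost with the GC offset (-0.43), and Stx1a was at -0.82 without Ash1L shRNA sample 1 and -0.25 without sample 2. That of Rims2 was also lost by the likelihood ratio test, with library-size scaling, with the length offset and with the replicate block (-0.31), alone or with either offset. The 3 UP genes, Rem2, Gem and Rrad, belong with Rem1 to the RGK family of GTPases, known to bind beta subunits and inhibit high-voltage channels.

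Rem2 was at 6.38 and 4.45 CPM in the control and 11.6 and 31.1 CPM in the Ash1L shRNA samples (log2 fold change 1.997 ± 0.50 SE, adjusted p = 0.255 by edgeR). Gem was at 2.55 and 2.91 CPM against 5.26 and 33.9 CPM, the widest gap between the Ash1L shRNA samples of these genes (log2 fold change 2.82 ± 0.94 SE, adjusted p = 0.268 by edgeR). Without Ash1L shRNA sample 2 its log2 fold change was 0.94. Rrad and Rem1 are among the 22 genes but were chosen to be named after their values were seen. Rrad was at 3.05 and 3.36 CPM in the control against 9.38 and 17.5 CPM (log2 fold change 2.05 ± 0.34 SE, adjusted p = 0.24 by edgeR), and its UP call held when each sample in turn was left out. Rem1, with at most 19 counts in a sample, had a log2 fold change of 0.55 (adjusted p = 0.597 by edgeR). Rem2 fell short of a call without control 2 (1.73) and was at 1.13 without Ash1L shRNA sample 2, still UP. The call of Gem was lost in 5 of 16 further fits: without control 1 (2.75), without control 2 (2.92), with no filter (2.81), with the replicate block and length offset together (2.44) and with a crossed block (2.22).

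**Figure D5:**
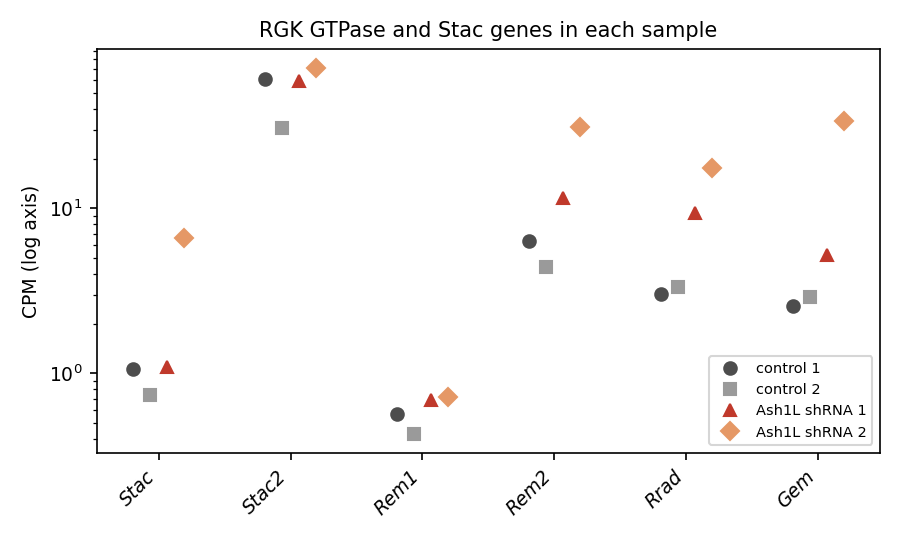
CPM (log axis) of the 4 RGK genes and of Stac and Stac2, genes of another family of channel-binding proteins, in each sample; the genes were chosen for the plot after their values were seen. All 4 RGK genes lie wholly above the control pair, as do 26.5% of all tested genes, and are highest in Ash1L shRNA sample 2. Rem1 had at most 19 counts in a sample. Stac is set apart by sample 2 alone, at 6.61 CPM against 0.74 to 1.10 CPM.

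Genes acting downstream of calcium entry, or on calcium stores, were described by the same counts. Among all tested genes 8.28% were DOWN and 8.61% UP. Of 7 calcium-activated potassium channel genes, which link calcium entry to repolarization, 0 were called. Their log2 fold changes had a median of -0.21 (range -0.69 to 0.04). Of 6 genes for calcium release channels of the endoplasmic reticulum, 1 was DOWN and the median was -0.14. That gene, the IP3 receptor Itpr1, was at 1582 and 1602 CPM in the control and 1286 and 1010 CPM in the Ash1L shRNA samples (log2 fold change -0.47, adjusted p = 0.26 by edgeR), and its call was lost without control 1 or without control 2.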

How the data were processed

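Bulk RNA-seq counts of 4 mouse PFC samples were used, 1 deposited table per sample with a gene symbol and a raw read count. Per the labels, libraries were prepared with a stranded total RNA kit after ribosomal RNA depletion. The authors' processing notes name STAR, featureCounts and mm10, whereas the extraction text names Cutadapt and TopHat2; strand setting and annotation are not given in the sources used here. Symbols were matched to GENCODE vM21 (GRCm38) for coordinates, exonic length and coding sequence, with a value for 93.67% of tested genes.

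Genes were filtered with filterByExpr and tested with edgeR 4.0.16 (TMM, robust quasi-likelihood) in R 4.3.3, with Benjamini-Hochberg adjustment over 16232 genes. Calls used the study's limits (P under 0.05, at least 1.2-fold), applied here to edgeR's unadjusted P, whereas the study used DESeq2. Class values were compared by exact permutation with SciPy 1.17.1. Alternatives were DESeq2 1.42.0, edgeR's likelihood ratio test, other scalings and filters, length and GC offsets, replicate blocks, each sample left out and a 1.5-fold limit. The 10 genes and the gene lists were chosen with earlier results of these data known. All 10 genes were named, as were all genes of the other subunit list and up to 4 called genes with the highest mean count of each further list. The 22 regulatory genes include Cbarp, counted under its older symbol Dos.

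Over all genes, replicates of a group differed by more than counting noise (chi-square per degree of freedom 14.76 in control and 42.29 in Ash1L shRNA). Depth was 14251190 to 35764874 counts per sample; for single genes counting error can be as large as the difference between replicates.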

Additional observations from a re-analysis of the deposited data

How the results depend on the processing

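With 2 samples a group, leaving out 1 leaves a lone sample that is assumed to vary like the other group. The number of the 10 genes called DOWN, 1 as reported, was 0 with the replicate block, the length offset, the replicate block with the length or GC offset and the 1.5-fold limit, and ran from 0 to 4 with 1 sample left out. The number UP was 0 throughout. Of the other subunit genes, 2 were DOWN as reported. DESeq2, the likelihood ratio test, library-size scaling, the replicate block, that block with the length offset and the 1.5-fold limit each gave 1. The GC offset, alone or with the block, gave 0. The share of all tested genes DOWN was 6.35% by DESeq2, 7.81% by the likelihood ratio test and 7.05% with library-size scaling. With the GC offset alone it was 7.57%. The count of other subunit genes too changed with the sample left out. Cacna1s made 1 UP by the likelihood ratio test and with at least 10 counts in every sample. The high-voltage median ran from -0.21 to 0.034 and the T-type median from -0.48 to -0.10 with 1 sample left out, and the T-type median was negative in all fits. Log2 fold changes that changed sign with 1 sample left out were those of Cacna1b (-0.22 to 0.034), Cacna1c (-0.079 to 0.19), Cacna1d (-0.21 to 0.12), Cacna1g (-0.48 to 0.094), Cacnb4 (-0.011 to 0.17), Cacna2d2 (-0.46 to 0.19) and Cacna2d4 (-0.48 to 0.25); Cacna1d was also 0.0056 with library-size scaling. The cause was not tested.

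Over all genes, 1344 were DOWN and 1397 UP, and library-size scaling gave 1144 and 1635 with a median shifted by 0.04. An adjusted p under 0.05 was reached by 1 gene as reported, 420 by DESeq2, 479 by the likelihood ratio test, 34 without a filter, 16 with the crossed block and 16 with the replicate block and length offset. It was reached by 2502 genes without Ash1L shRNA sample 1, 36 without sample 2 and 0 without either control; 1 sample left out gave 306 to 2718 DOWN. Same-numbered samples deviated with a correlation of -0.104, so the numbers are not shown to pair them. The replicate block gave 1020 DOWN and 1052 UP with 0 adjusted. A crossed pairing, added after seeing the data, gave 1736 DOWN and 1541 UP, with 3 of the 10 genes DOWN.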
